A study of Mus musculus with 11 samples.

Results

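The expression of 10 imprinted genes that act in fetal growth was followed in cultured lung mesenchymal cells of mouse embryos with 2, 1 or no intact copies of Sp3. The genes were H19, Dlk1, Meg3, Peg3, Peg10, Plagl1, Mest, Grb10, Ndn and Nnat. They were picked by symbol from the 24062 genes listed in the count tables, and all 10 passed the filter on low counts and were tested.

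Imprinted genes are expressed mainly from the copy inherited from a single parent, the mother for some genes and the father for others, and the mark that sets this is DNA methylation laid down in the germ line. Many of them regulate how large the fetus and placenta grow, with paternally expressed genes such as Igf2 and Dlk1 tending to favour growth and maternally expressed genes such as Grb10 and H19 tending to restrain it. Most are abundant in fetal mesenchyme and fall to low levels in the same organs after birth. Sp3 is a zinc finger transcription factor that binds GC-rich promoter elements called GC boxes. The reads do not separate the maternal from the paternal copy, so every level below is the sum of both.

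RNA was taken from primary fetal lung mesenchymal cells of embryonic day 15, which had been selected by rapid adhesion to plastic and passaged 2 times. There were 4 Sp3+/+, 4 Sp3+/- and 3 Sp3-/- libraries, from timed matings of mice heterozygous for a germ line Sp3 allele. The mutation was thus present in every cell of the embryo and not in the mesenchyme alone, and no agent is named for any library beyond the word CTRL in all 11 titles. The sources used here do not say which libraries came from separate embryos, litters or cultures, so the p-values below measure the spread between these libraries, part of which may be technical. Single values are read counts scaled to library size (counts per 1000000 reads on genes, CPM) and are given in 1 order throughout, Sp3+/+ libraries 468-4, 685-2, 697-1 and 697-3, Sp3+/- libraries 468-3, 685-5, 685-7 and 697-4, and Sp3-/- libraries 685-1, 697-2 and 697-5.

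Each library held between 9849111 and 59297495 reads on genes, and Sp3-/- 697-5 was the shallowest. Sp3 itself measured 14.8 to 18.8 CPM in the Sp3-/- libraries, 52.5 to 70.8 in Sp3+/- and 61.4 to 108 in Sp3+/+ cells, so the Sp3-/- libraries stood clear of both other genotypes. The fibroblast collagens Col1a1 and Col1a2 were abundant in every library, with the lowest values (1571 and 2313 CPM) in Sp3-/- cells, while haemoglobin Hba-a1 was at 0 in all 11. The macrophage genes Ptprc, Csf1r and Emr1 (now Adgre1) were present in every library. The 12 macrophage markers summed to 618 to 3265 CPM in Sp3+/+, 375 to 3050 in Sp3+/- and 3085 to 11265 in Sp3-/- libraries. Some titles carry a closing 2 or 3, here called the suffix, whose meaning is not given in the sources used here. All 3 Sp3-/- libraries lack it, as do Sp3+/+ 468-4 and, by its title, Sp3+/- 697-4. Genotype and suffix were thus nearly confounded, and values adjusted for the suffix are given for each member in the comparison with Sp3+/+ cells. In these bulk samples fewer cells of a type and less RNA per cell cannot be told apart.

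The 250 bases before a start in RefSeq's promoter table are shown for Ndn and Nnat, the members called lower in Sp3-/- cells, and for Grb10 and Dlk1, the members with the next smallest adjusted p. They were read from RefSeq on GRCm38.p6, the build of the counts, 5′ to 3′ on the strand of the gene, and promoter entries were matched for 8 of the 10 genes (H19 and Peg10 had no entry). The Dlk1 window, and the end of the Grb10 window, lie inside the gene spans printed below, which begin further upstream. Capitals in the Ndn and Nnat sequences mark the longest run of letters the pair of windows share, and capitals in the Grb10 sequence mark GC boxes.

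Ndn, chr7:62348027-62348276 (plus strand): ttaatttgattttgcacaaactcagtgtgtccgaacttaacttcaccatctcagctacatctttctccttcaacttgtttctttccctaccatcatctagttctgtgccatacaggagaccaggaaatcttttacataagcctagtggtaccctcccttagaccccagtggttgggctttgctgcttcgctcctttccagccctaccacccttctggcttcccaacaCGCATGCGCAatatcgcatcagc
Nnat, chr2:157559828-157560077 (plus strand): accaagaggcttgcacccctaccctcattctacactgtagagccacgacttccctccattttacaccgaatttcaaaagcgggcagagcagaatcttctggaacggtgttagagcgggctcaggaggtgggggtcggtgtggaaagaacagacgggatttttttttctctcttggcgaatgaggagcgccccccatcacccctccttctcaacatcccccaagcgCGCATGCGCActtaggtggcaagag
Grb10, chr11:12037421-12037670 (minus strand): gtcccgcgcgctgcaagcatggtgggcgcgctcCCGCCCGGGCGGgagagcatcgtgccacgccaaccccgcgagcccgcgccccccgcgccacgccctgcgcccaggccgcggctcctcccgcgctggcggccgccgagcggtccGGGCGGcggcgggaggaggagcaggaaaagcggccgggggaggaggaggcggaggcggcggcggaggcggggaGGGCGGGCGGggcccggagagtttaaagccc
Dlk1, chr12:109452573-109452822 (plus strand): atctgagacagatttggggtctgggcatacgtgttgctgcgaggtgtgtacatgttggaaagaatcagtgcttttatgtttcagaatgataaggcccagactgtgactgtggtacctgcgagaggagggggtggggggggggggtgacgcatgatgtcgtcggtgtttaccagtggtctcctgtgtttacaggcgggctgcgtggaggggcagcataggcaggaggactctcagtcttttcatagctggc

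The GC box was searched as GGGCGG on either strand, and 32.7% of the 32851 promoter windows of this length hold at least 1. The Grb10 window has 81.2% G or C and 5 boxes, some of which overlap or touch, and the window of its other annotated start has 0. Plagl1 has 2 boxes and each of the Mest starts has 1, whereas the windows of Ndn, Nnat, Dlk1, Meg3 and Peg3 hold none with these letters. The run shared by Ndn and Nnat, CGCATGCGCA or its reverse complement, was found after their calls were known. It is in 0.843% of all windows and in none of the other 6 members with an entry. These are matches of letters in a fixed window and not evidence of binding.

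**Figure D1:**
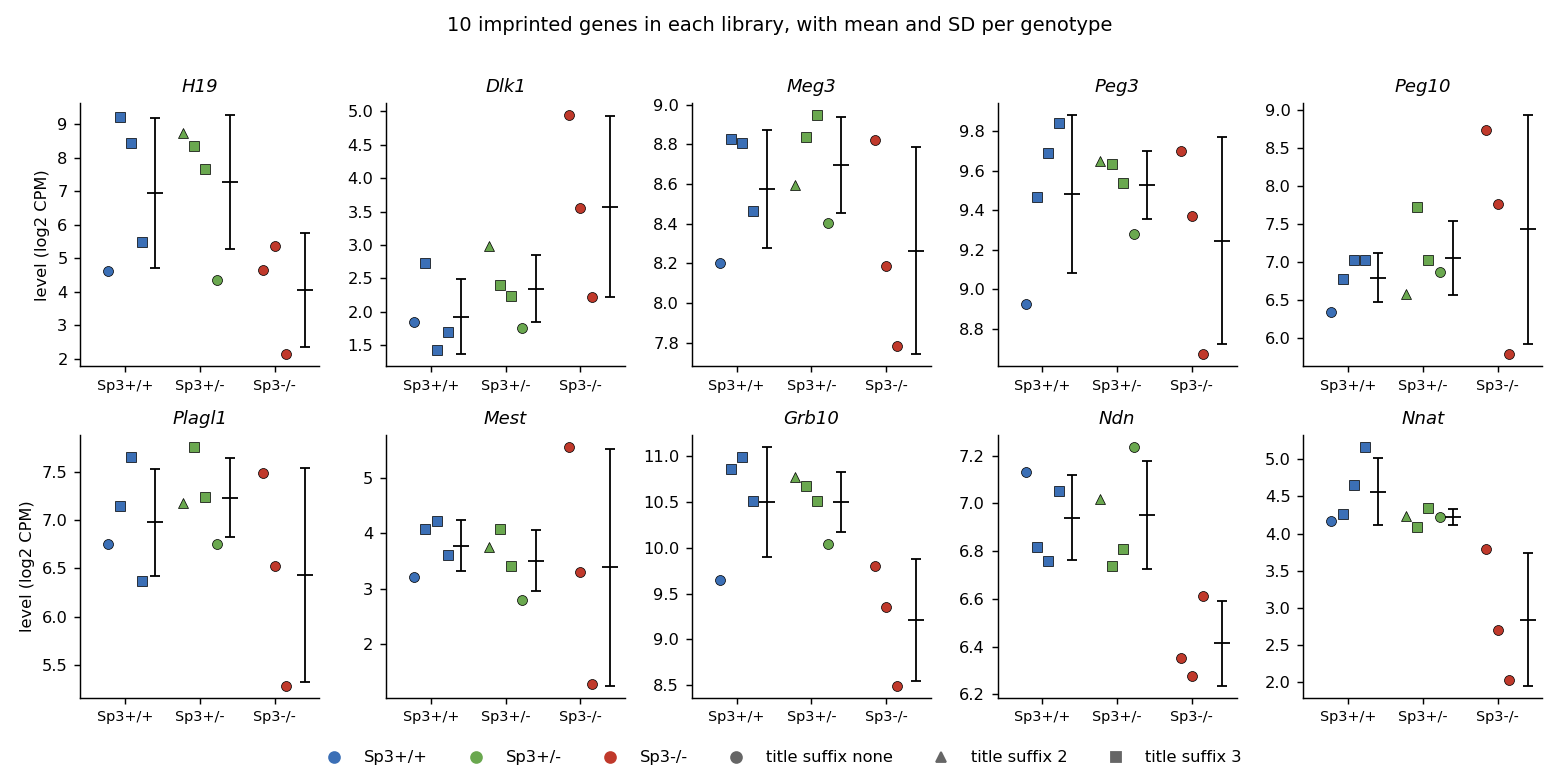
Level of each of the 10 genes (log2 CPM, a separate scale for each gene) in every library by genotype, with the marker shape giving the title suffix and the bar the mean and SD of the genotype (n = 4, 4 and 3). The Sp3-/- points lie below all 8 others for Ndn and Nnat and spread over the range of the other genotypes for Meg3, Peg3, Plagl1 and Mest.

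Ndn and Nnat were lower in Sp3-/- than in Sp3+/+ cells, and the other 8 genes did not pass the threshold. Among all 14025 genes tested 18.5% were called in either direction and 9.77% were called lower, so 2 of 10 members called is close to the share among all genes. The median log2 fold change of the 10 genes was -0.31, beside 0 over all genes tested. In all, 7 of the 10 had a negative and 3 a positive fold change, and those 3 (Dlk1, Peg10 and Mest) were all highest in Sp3-/- 685-1 and lowest, of the Sp3-/- libraries, in 697-5. Each gene was tested by the quasi-likelihood method of edgeR, and a call means a p of under 0.05 after Benjamini-Hochberg adjustment over all genes. DESeq2, which called 30.6% of all genes, called H19, Grb10 and Dlk1 as well. With the suffix covariate, in a fit of all 11 libraries that called 9.41% of 14130 genes, only Ndn was called. All 11 libraries in 1 fit without the covariate called 3977 of 14130 genes and 4 members (Dlk1, Grb10, Ndn and Nnat).

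**Figure D2:**
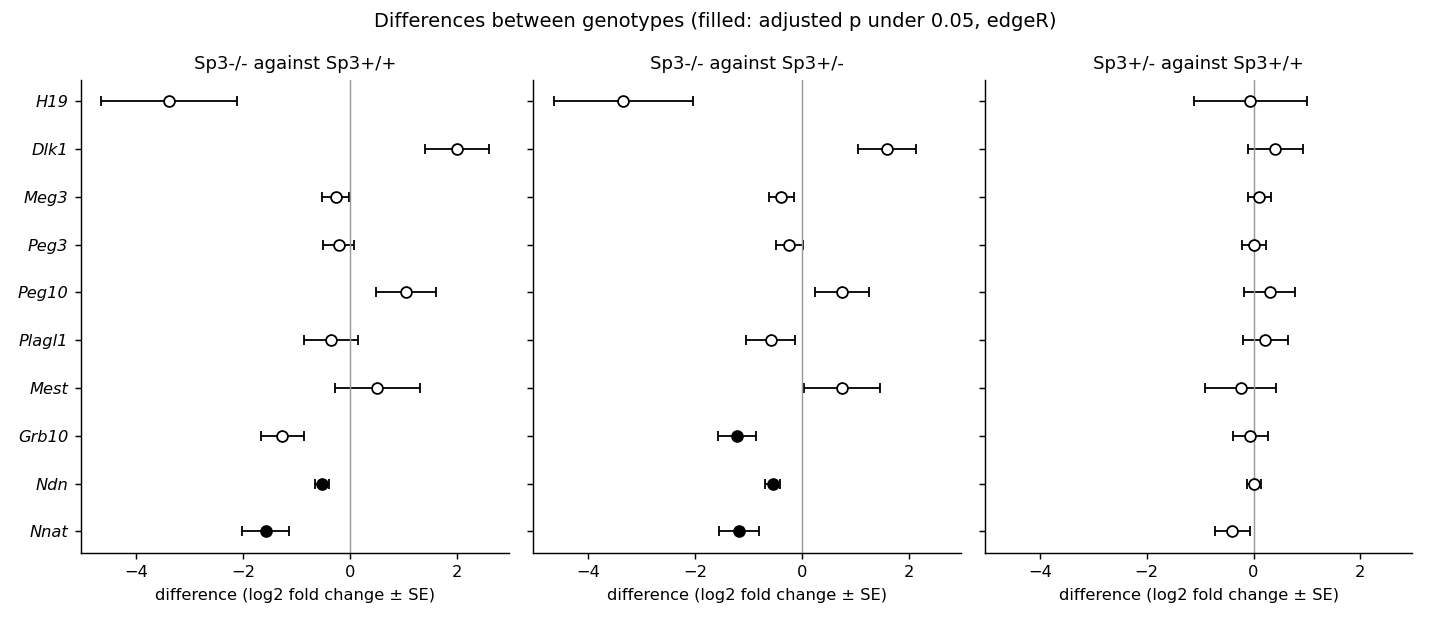
Log2 fold change with its standard error for the 10 genes in each comparison of genotypes, from edgeR, with filled points for an adjusted p under 0.05. Ndn and Nnat are filled in both comparisons with Sp3-/- cells, Grb10 only against Sp3+/- cells, and no gene is filled in the comparison of Sp3+/- with Sp3+/+ cells.

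Ndn (necdin, chr7:62348277-62349928) encodes a MAGE family protein that restrains cell division and is expressed from the paternal copy. It measured 140, 113, 108 and 133 CPM in the Sp3+/+ libraries and 130, 107, 112 and 151 in the Sp3+/- libraries. The Sp3-/- libraries had 81.6, 77.4 and 97.9 CPM, all below the lowest of the other 8. The fall was small and even, with a log2 fold change of -0.53 (SE 0.13, 1.44-fold, adjusted p = 0.0339, edgeR). Of the 10 genes it had the smallest SD in Sp3+/+ and in Sp3-/- cells, 0.18 log2 CPM in each. With the suffix covariate the change was -0.79 (adjusted p = 0.0148, edgeR), and against Sp3+/+ 468-4 alone, which has no suffix either, the mean of the 3 Sp3-/- libraries was lower by 0.72 log2 units. Counting Sp3+/- 697-4 as suffix 2, as another of its labels has it, left -0.71 (adjusted p = 0.0787, edgeR), in a fit that called 1.15% of all genes and none of the 10. Leaving out Sp3+/+ 685-2, 697-1 or 697-3 or Sp3-/- 685-1 or 697-2 also ended the call, with adjusted p between 0.0572 and 0.1270 and a fold change between -0.58 and -0.46. In that order, these fits called 893, 766, 802, 2232 and 282 of all genes, beside 2599 with every library kept.

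Nnat (neuronatin, chr2:157560078-157562525) encodes a small membrane protein of the endoplasmic reticulum and is paternally expressed. Its levels were 18.0, 19.2, 25.0 and 36.0 CPM in Sp3+/+ and 18.8, 17.0, 20.3 and 18.6 CPM in Sp3+/- libraries. In Sp3-/- cells they were 13.8, 6.44 and 4.00 CPM. Again no Sp3-/- library reached the others, but 685-1 came near the lowest of them while 697-5 was far below, on 39 reads. The log2 fold change was -1.58 (SE 0.44, 2.99-fold, adjusted p = 0.0457, edgeR), and -1.32 after adjustment for the suffix (adjusted p = 0.1143, edgeR). The call was lost without any of Sp3+/+ 685-2, 697-1 and 697-3 and Sp3-/- 697-2 and 697-5, with adjusted p from 0.0844 to 0.1533, and the fold change was largest (-2.20) without 685-1. In that order, the fits that lost it called 893, 766, 802, 282 and 1408 of all genes, beside 2599 with every library kept. Nnat lies within an intron of Blcap, which was also counted, and the strand setting of the counts is not given in the sources used here, so reads of the pair may have been mixed. Libraries of Sp3-/- cells did not overlap those of Sp3+/+ cells for these 2 of the 10 genes, and for 31.6% of all genes. Against all 8 libraries with Sp3 the count was again 2 of 10, beside 24.2% of all genes.

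Grb10 (chr11:11930499-12037428), an adaptor that binds the insulin and IGF receptors and damps their signal, is expressed from the maternal copy in most tissues outside the brain. It was the most abundant member, at 800, 1862, 2027 and 1459 CPM in Sp3+/+ libraries and 1751, 1642, 1456 and 1051 CPM in Sp3+/- libraries. The Sp3-/- libraries had 895, 651 and 359 CPM. Only Sp3+/+ 468-4 fell among the Sp3-/- values, and it and Sp3+/- 697-4 were the lowest of their genotypes. The log2 fold change against Sp3+/+ was -1.27 (SE 0.40, adjusted p = 0.0643, edgeR). Without 468-4 it was -1.49 and passed the test (adjusted p = 0.0185, edgeR). That fit called 4179 of all genes, beside 2599 with every library kept. Adjusted for the suffix it was -0.56 (adjusted p = 0.3473, edgeR). Among the libraries without a suffix, the Sp3-/- mean was 0.43 log2 units below 468-4.

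H19 (chr7:142575530-142578146), a maternally expressed long non-coding RNA, and Igf2, the paternally expressed growth factor gene beside it, are controlled by a shared set of enhancers. In the libraries with Sp3, H19 had the largest SD of the 10 genes (2.23 log2 CPM in Sp3+/+ cells). It measured 24.4, 597, 345 and 44.6 CPM in Sp3+/+ and 427, 323, 201 and 20.2 CPM in Sp3+/- libraries. The Sp3-/- libraries had 25.1, 40.7 and 4.31 CPM, the last from 42 reads. Sp3+/+ 468-4 and Sp3+/- 697-4 thus lay within the Sp3-/- range, and Sp3+/+ 697-3 just above it. At -3.39 the log2 fold change was the largest of the 10 genes but had an SE of 1.28 (adjusted p = 0.0997, edgeR; 0.0231 by DESeq2). It was -0.03 with the suffix covariate. All 5 libraries without a suffix lay between 4.31 and 40.7 CPM, and the 5 with suffix 3 between 44.6 and 597. Without Sp3+/+ 468-4 the call passed (-3.76, adjusted p = 0.0409, edgeR), in the fit that called 4179 of all genes.

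Igf2 had nearly the same pattern in the libraries that carry Sp3, at 38.3, 780, 442 and 69.3 CPM in Sp3+/+ and 509, 331, 302 and 30.0 CPM in Sp3+/- libraries. In Sp3-/- cells it was 67.8, 185 and 113 CPM, and it was not called (log2 fold change -1.43, SE 1.01, adjusted p = 0.3373, edgeR). Its direction turned when the suffix entered the fit (1.64, adjusted p = 0.2522, edgeR). The Sp3-/- mean was 1.55 log2 units above 468-4, the Sp3+/+ library without a suffix. The pair of genes kept a narrow ratio in the 8 libraries with Sp3. Read counts of H19 divided by those of Igf2 gave 0.637, 0.765, 0.78 and 0.643 in Sp3+/+ and 0.838, 0.975, 0.665 and 0.673 in Sp3+/- libraries. The ratios were 0.37, 0.221 and 0.038 in Sp3-/- libraries, below all 8 others, including the 3 libraries in which both genes were low. The ratio was chosen after these values were seen and was not tested.

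**Figure D3:**
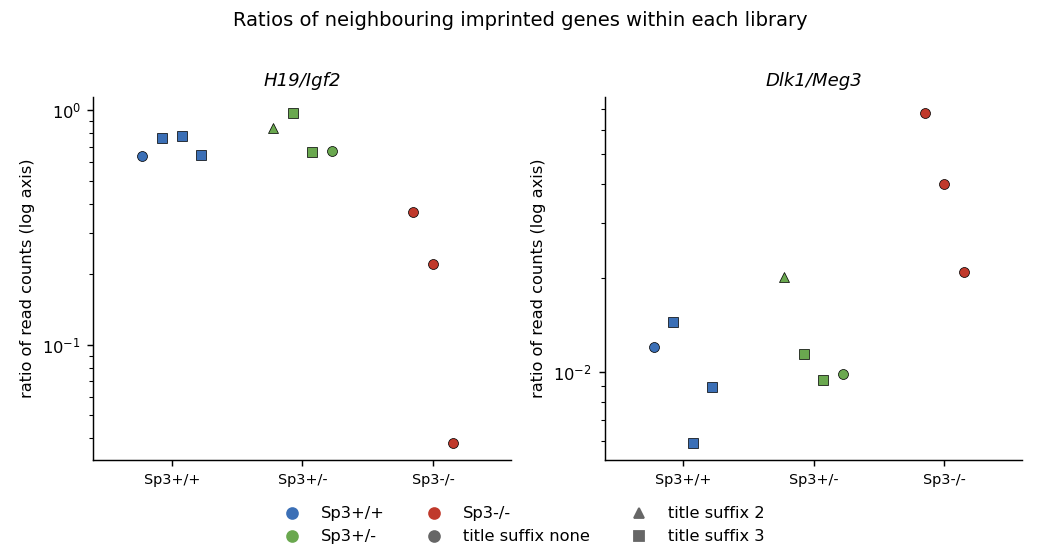
Ratio of the read counts of H19 to Igf2 and of Dlk1 to Meg3 in each library (log axes), by genotype and title suffix. All 3 Sp3-/- libraries lie below the others for H19 to Igf2, at 0.038 to 0.37, and above them for Dlk1 to Meg3, at 0.0209 to 0.0678. For Dlk1 to Meg3 the margin is slight, with Sp3-/- 697-5 (0.0209, on 45 Dlk1 reads) almost level with Sp3+/- 468-3 (0.0202).

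Dlk1 (chr12:109452485-109463336) encodes a paternally expressed membrane ligand of the Notch family that holds back the maturation of fat and stromal cells. It was the least abundant member, with 3.54, 6.57, 2.64 and 3.17 CPM in Sp3+/+ and 7.82, 5.22, 4.64 and 3.33 CPM in Sp3+/- libraries. The Sp3-/- libraries had 30.7, 11.7 and 4.61 CPM. Thus 2 Sp3-/- libraries were above all others and 697-5 was within their range, on 45 reads. The log2 fold change was 2.01 (SE 0.60, adjusted p = 0.0556, edgeR; 0.0048 by DESeq2) and 2.29 with the suffix covariate (0.0912 after adjustment, edgeR). Without Sp3-/- 697-5 it passed (2.43, adjusted p = 0.0315, edgeR), and without 685-1 it was 1.07 (adjusted p = 0.1620, edgeR).

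Meg3 (chr12:109540996-109571729), a maternally expressed non-coding RNA of the same imprinted domain, did not follow Dlk1. It measured 295, 453, 448 and 354 CPM in Sp3+/+, 386, 458, 494 and 339 CPM in Sp3+/- and 452, 291 and 221 CPM in Sp3-/- libraries. The genotypes overlapped, with a log2 fold change of -0.27 (SE 0.26, 95% interval -0.78 to 0.25) that was 0.12 with the suffix covariate. The neighbouring non-coding RNAs Rian and Mirg gave -0.49 (SE 0.24) and -0.42 (SE 0.36), and Rtl1, a retrotransposon-derived gene transcribed against a span of Meg3, gave -0.06 (SE 0.41) at 0.506 to 1.31 CPM. Adjusted for the suffix these 3 gave -0.23, -0.04 and 0.59. Neither Meg3 nor any of the 3 was called, although Rian passed without Sp3-/- 685-1 (-0.81, adjusted p = 0.0410, edgeR). The ratio of Dlk1 to Meg3 reads was 0.0059 to 0.0202 in the 8 libraries with Sp3 and 0.0678, 0.0402 and 0.0209 in Sp3-/- libraries, a comparison chosen after the values were seen and not tested.

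Peg10 (chr6:4747306-4760517), a paternally expressed gene derived from a retrotransposon that the placenta requires, had 81.0, 110, 130 and 130 CPM in Sp3+/+ and 95.3, 211, 131 and 117 CPM in Sp3+/- libraries. Its Sp3-/- libraries held both the highest value and the lowest, with 426, 217 and 55.1 CPM. The log2 fold change of 1.05 had an SE of 0.56 and, of the fits with a library dropped, passed the test only without Sp3-/- 697-5 (1.51, adjusted p = 0.0319, edgeR). Adjusted for the suffix it was 1.51 too, and was not called (adjusted p = 0.1966, edgeR). Sgce, the epsilon sarcoglycan gene transcribed away from Peg10 from the same promoter region, was lower in all 3 Sp3-/- libraries (40.8, 32.6 and 25.1 CPM, beside 45.4 to 59.9 in Sp3+/+), with a log2 fold change of -0.65 (SE 0.17, adjusted p = 0.0414, edgeR) that was -0.53 and not called after adjustment for the suffix (adjusted p = 0.1132, edgeR). Ppp1r9a, an actin-binding neighbour of Peg10 listed as maternally expressed, was higher, at 57.3, 47.3 and 32.8 CPM in Sp3-/- and 11.6 to 21.0 in Sp3+/+ libraries (1.53, SE 0.25, adjusted p = 0.0131, edgeR). When single libraries were dropped, the call of Sgce held only without Sp3+/+ 468-4 or Sp3-/- 685-1, and that of Ppp1r9a was lost only without Sp3-/- 697-2 (adjusted p = 0.0558, edgeR). Asb4, from the same cluster, was near 1 CPM and was not called (-0.31, SE 0.41). Genes of this cluster thus went in different directions in the same libraries.

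Mest (chr6:30733506-30748466) encodes an enzyme-like protein of the hydrolase fold, is paternally expressed and is a usual marker of fetal mesoderm. It was low, at 9.17, 16.9, 18.6 and 12.1 CPM in Sp3+/+ and 13.4, 16.9, 10.5 and 6.87 CPM in Sp3+/- libraries. In Sp3-/- cells it was 47.6, 9.84 and 2.36 CPM, which spans more than the range of all other libraries. The log2 fold change of 0.51 (SE 0.80) became -1.15 without Sp3-/- 685-1 and 1.23 with the suffix covariate. Mest overlaps Copg2 and the microRNA gene Mir335, which were counted too. Mir335 had 2 reads in all 11 libraries and Mir675, the microRNA gene within H19, had 0, so these data say nothing on either microRNA.

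Peg3 (chr7:6703892-6730462) and Plagl1 (chr10:13090832-13131694), paternally expressed zinc finger genes, overlapped between all genotypes. Peg3 measured 487, 707, 825 and 918 CPM in Sp3+/+, 802, 795, 745 and 622 CPM in Sp3+/- and 830, 661 and 408 CPM in Sp3-/- libraries. Plagl1, which regulates other imprinted genes, measured 107, 141, 202 and 82.4 CPM in Sp3+/+, 145, 217, 151 and 108 CPM in Sp3+/- and 180, 92.2 and 38.9 CPM in Sp3-/- libraries. Both were lowest in Sp3-/- 697-5, and their log2 fold changes were -0.21 (interval -0.78 to 0.36) and -0.36 (-1.34 to 0.63). Both turned with the suffix covariate, to 0.22 and 0.08. Usp29 and Zim1, which neighbour Peg3, gave -0.07 (SE 0.27) and -0.15 (SE 0.39), or 0.21 and 0.34 with the covariate, and were not called.

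Within the Sp3-/- group most members followed 1 order, and the share of all genes that did so was not counted. Levels were highest in 685-1, intermediate in 697-2 and lowest in 697-5 for Dlk1, Meg3, Peg3, Peg10, Plagl1, Mest, Grb10 and Nnat, and the exceptions were H19, which was highest in 697-2, and Ndn, which was highest in 697-5. The summed level of the 10 genes was 2979, 2058 and 1194 CPM in these 3 libraries, beside 1964, 4023, 4130 and 3170 CPM in Sp3+/+ and 3774, 3789, 3323 and 2434 CPM in Sp3+/- libraries. The sum of 12 mesenchyme markers also fell over the 3 Sp3-/- libraries, from 18954 to 13155 and 7280 CPM, and was 13208 in Sp3+/+ 468-4, 15030 in Sp3+/- 697-4 and 20879 to 22521 in the other 6 libraries. The macrophage sum was 3085, 11265 and 10596 CPM in the Sp3-/- libraries, 3265 in 468-4, 3050 in 697-4 and 375 to 891 in the other 6. Of the 12 mesenchyme markers 10 had a negative fold change and 5 were called lower in Sp3-/- than in Sp3+/+ cells. Of the 12 macrophage markers all 12 had a positive fold change and 6 were called higher. Over all 14025 genes tested 1229 were called higher and 1370 lower. In the fit with the suffix none of the 12 macrophage markers was called (median log2 fold change 1.06 beside 2.34 without it), and of the mesenchyme markers 1 was called higher and 2 lower (median -0.36 beside -0.87). The sum of 14 cell cycle genes was lowest in Sp3-/- 697-5, Sp3+/+ 468-4, Sp3+/- 697-4 and Sp3-/- 685-1 (209, 277, 326 and 347 CPM), in which H19 was 4.31 to 25.1 CPM. The part of these cell populations in the levels of H19, Grb10 and Nnat was not tested.

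The 9 mesothelial markers summed to 6499, 3290 and 2260 CPM in the Sp3-/- libraries. That order held there for Dlk1, Peg10 and Mest, and also for Meg3, Peg3, Plagl1, Grb10 and Nnat. The mesothelial sums were 783 to 1855 CPM in Sp3+/+ and 1582 to 2803 CPM in Sp3+/- libraries. All 9 had a positive fold change and 4 were called higher in Sp3-/- than in Sp3+/+ cells, and Wt1, Msln and Upk3b were present in every library. The epithelial sum was 179, 94.3 and 54.3 CPM in the Sp3-/- libraries and 25.2 to 50.6 in the other 8, and 3 of the 8 epithelial markers tested were called higher, although Epcam and Nkx2-1 did not exceed 1.20 CPM in any library. After adjustment for the suffix only Wt1 of the mesothelial markers (median 1.53 beside 1.63) and only Cdh1 of the epithelial markers was called. The part of these cells in the levels of Dlk1, Peg10 and Mest was not tested. Endothelial markers summed to 40.2 to 122 CPM, neural markers to 24.6 to 133 CPM (highest in Sp3+/+ 468-4) and erythroid markers to 2.75 to 16.5 CPM, and only the erythroid sum did not overlap between Sp3-/- and Sp3+/+ libraries.

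**Figure D4:**
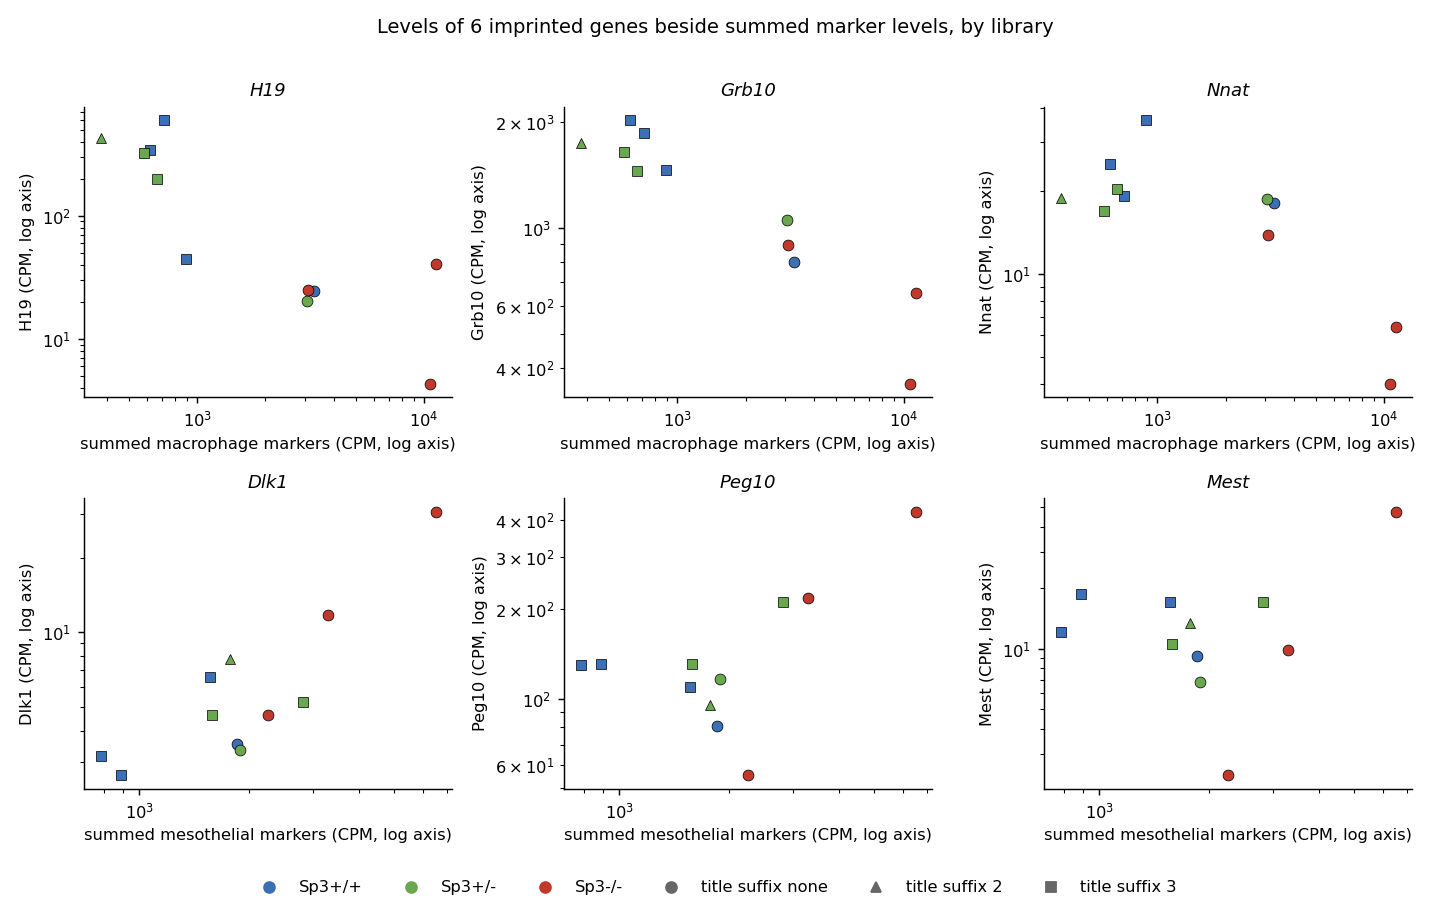
Level of H19, Grb10 and Nnat against the summed level of 12 macrophage markers, and of Dlk1, Peg10 and Mest against the summed level of 9 mesothelial markers, for each library on log axes (CPM). Grb10 is highest in the 6 libraries with macrophage sums of 375 to 891 CPM, and Dlk1 and Peg10 are highest in Sp3-/- 685-1, which has the highest mesothelial sum (6499 CPM).

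In cells with a single intact copy of Sp3, none of the 10 genes was called against Sp3+/+ cells. Log2 fold changes of Sp3+/- against Sp3+/+ ran from -0.40 for Nnat to 0.41 for Dlk1, and the genotypes overlapped for every member. No gene was called in this comparison (0 of 14130 genes, 0%) by edgeR, DESeq2 or limma-voom, and 246 genes had an unadjusted p under 0.05 by edgeR. The intervals differ in width. That of Ndn (-0.25 to 0.27) leaves out the size of its fall in Sp3-/- cells, whereas that of H19 (-2.12 to 2.01) is far wider.

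Against Sp3+/- cells, 3 members were called in Sp3-/- cells, all lower. Among the 14130 genes in this comparison 25.5% were called in either direction and 12.5% were called lower. Ndn fell by 0.54 (SE 0.14, adjusted p = 0.0225, edgeR), Nnat by 1.18 (SE 0.37, adjusted p = 0.0397, edgeR) and Grb10 by 1.21 (SE 0.36, adjusted p = 0.0343, edgeR) on the log2 scale. Libraries of these 3 genes did not overlap between the genotypes, as for 34.3% of all genes. H19 (-3.34, SE 1.30, adjusted p = 0.0828) and Dlk1 (1.60, SE 0.54, adjusted p = 0.0522) missed the threshold by edgeR and were called by DESeq2, which called 32.8% of all genes. With the suffix covariate, which called 5.4% of all genes, only Ndn was called (-0.74, adjusted p = 0.0235, edgeR). Without Sp3+/- 468-3 or Sp3-/- 697-2 none of the 3 calls held. Those fits called 2314 and 1490 of all genes, beside 3607 with every library kept. Without Sp3+/- 685-5 or 685-7 only Ndn was called, without Sp3-/- 697-5 the call was lost for Grb10 and Nnat, without Sp3-/- 685-1 for Ndn and without Sp3+/- 697-4 for Nnat. Since both comparisons use the same 3 Sp3-/- libraries, they are not independent of each other.

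Levels of different genes were compared per kilobase of the canonical transcript in GENCODE vM39. In Sp3+/+ cells the medians ran from Grb10 (326 CPM per kilobase) and Meg3 (242) through H19 (88.0), Peg3 (87.5), Ndn (33.3), Plagl1 (23.1), Peg10 (18.3), Nnat (15.9) and Mest (11.5) to Dlk1 (0.748). The ranges of Grb10 (157 to 398) and Meg3 (178 to 274) overlapped, and so did those of the next neighbours except in 2 places. At these lengths Peg3 (55.6 to 105) lay clear of Ndn (29.3 to 37.9), and Mest (7.26 to 14.7) lay clear of Dlk1 (0.589 to 1.46). The Ndn transcript used has 3694 bases, more than the RefSeq span of Ndn printed above. Its level per kilobase would be higher over that span. The gap from Peg3, and the place of Ndn in Sp3+/+ and in Sp3-/- cells, thus depend on the gene model. In Sp3-/- cells the order of the medians was Meg3 (176), Grb10 (128), Peg3 (75.5), Peg10 (33.1), Ndn (22.1), Plagl1 (17.1), H19 (11.3), Mest (7.80), Nnat (4.64) and Dlk1 (2.61), and the ranges of all neighbours in this order overlapped.

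Of 41 other imprinted genes listed from general knowledge, 28 passed the filter, and 6 of these were called in Sp3-/- against Sp3+/+ cells, 1 higher and 5 lower. Among all genes tested 18.5% were called and 9.77% were called lower, so 6 of 28 called is close to the share among all genes. Their median log2 fold change was -0.19, beside 0 over all genes. Besides Sgce and Ppp1r9a, which are described above, the called genes were Slc38a4, an amino acid transporter (-2.31, SE 0.54, adjusted p = 0.0297), Peg12, from the domain of Ndn (-1.80, SE 0.33, adjusted p = 0.0158), Igf2r, the receptor that removes IGF2 from the cell surface (-0.85, SE 0.23, adjusted p = 0.0404), and Gnas, the stimulatory G protein subunit gene (-0.43, SE 0.12, adjusted p = 0.0435), all by edgeR. Slc38a4 measured 26.0, 119, 108 and 110 CPM in Sp3+/+ and 17.6, 24.3 and 11.99 CPM in Sp3-/- libraries, with 468-4 again the lowest of its genotype. Peg12 had 4.25, 8.09, 7.68 and 7.17 CPM in Sp3+/+ and 1.59, 2.56 and 1.54 CPM in Sp3-/- libraries, and kept its call whichever of the 7 libraries was dropped. The other 3 calls were less stable, since those of Slc38a4 and Igf2r held only without Sp3+/+ 468-4, and that of Gnas only without 468-4 or Sp3-/- 697-5. When adjusted for the suffix, Slc38a4 (-1.14), Igf2r (-0.41) and Gnas (-0.42) were not called (adjusted p = 0.1063, 0.2147 and 0.0677, edgeR). Peg12 and Ppp1r9a were the only 2 of the 28 called in that fit (-1.31, adjusted p = 0.0251, and 1.45, adjusted p = 0.0277, edgeR), and neither was with 697-4 counted as suffix 2. The suffix covariate called 9.41% of all genes. Mkrn3 and Ube3a, also of the domain of Ndn, gave -0.31 (SE 0.27) and 0.27 (SE 0.13) and were not called.

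The split by parent did not separate the called genes. The parental labels come from general knowledge, and the reads cannot show whether they hold in these cells. Of the 16 genes tested that are listed as paternally expressed 3 were called, all lower. Of the 12 listed as maternally expressed 2 were called lower and 1 higher, beside 18.5% of all genes called. Among the genes that could not be tested, Dio3 of the Dlk1 domain had at most 2 reads in a library and Magel2 of the Ndn domain at most 12. Snrpn, also of the Ndn domain, had 1 read in all 11 libraries, and Snurf, which overlaps it, had at most 1 in a library. How reads over overlapping genes were counted is not given in the sources used here. The counts of this pair may thus not show their levels.

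**Figure D5:**
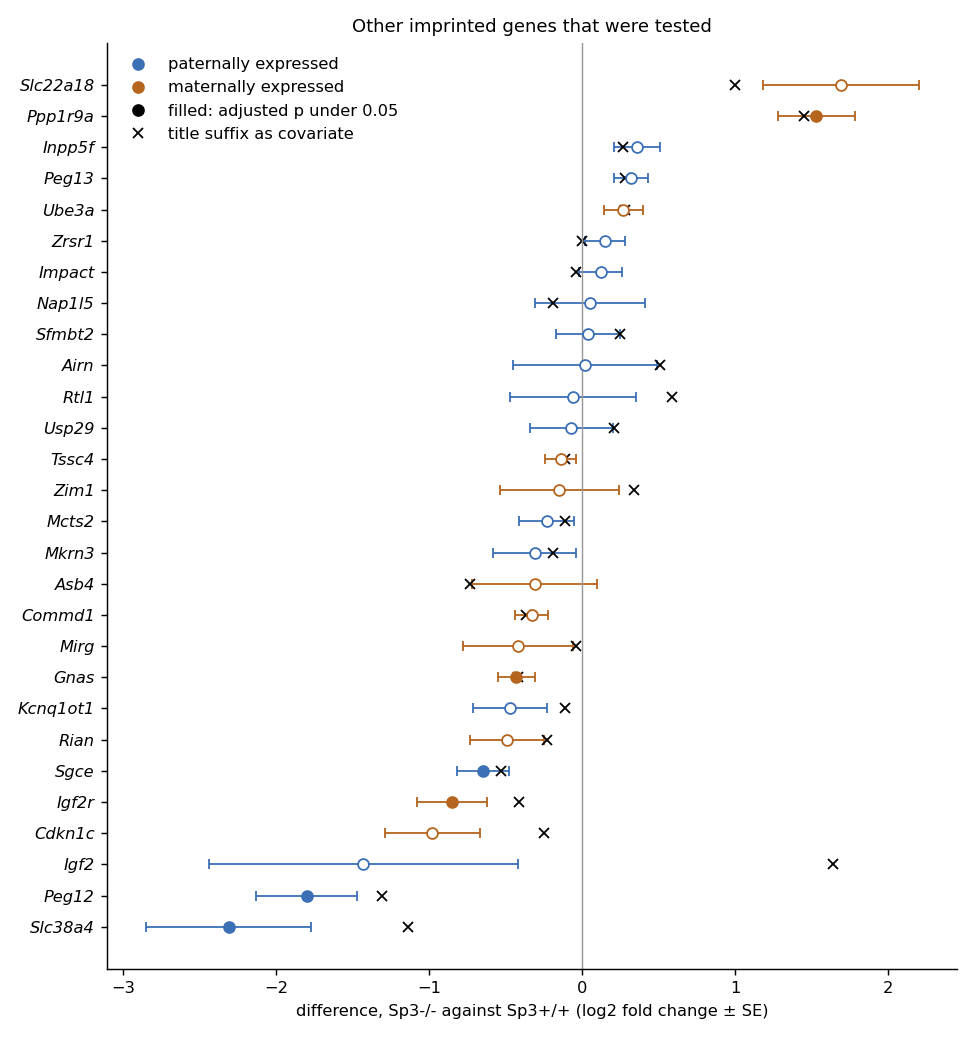
Log2 fold change with its standard error in Sp3-/- against Sp3+/+ cells for the 28 other imprinted genes tested, coloured by the parental copy listed as expressed, with crosses for the fit with the title suffix as a covariate. The 6 filled points passed the test, and the cross of Igf2 lies on the other side of 0 (1.64 beside -1.43).

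Of 13 tested genes that keep or remove imprints 2 were called, both higher: Dnmt3a, the de novo DNA methyltransferase (0.77, SE 0.16, adjusted p = 0.0222, edgeR), and Tet2, which oxidises methylated cytosine (0.43, SE 0.09, adjusted p = 0.0255, edgeR). With the suffix covariate Tet2 was called (0.50, adjusted p = 0.0229, edgeR) and Dnmt3a was not (0.64, adjusted p = 0.0545, edgeR). Both calls held without Sp3+/+ 468-4 or Sp3-/- 697-5, and Dnmt3a also without Sp3-/- 685-1, but in no other fit that left out a library. Dnmt3a measured 113, 95.1, 106 and 93.5 CPM in Sp3+/+ and 152, 218 and 148 CPM in Sp3-/- libraries. Of 10 genes of the fetal growth programme that often falls together with imprinted genes after birth, 4 were called, all lower. These were Sox11 (-1.99, SE 0.29, adjusted p = 0.0104), Hmga2 (-1.23, SE 0.25, adjusted p = 0.0220), Igf2bp1 (-1.14, SE 0.22, adjusted p = 0.0184) and Igf2bp3 (-0.85, SE 0.23, adjusted p = 0.0453), by edgeR. Igf2bp1 and Igf2bp3 encode fetal RNA-binding proteins that bind Igf2 transcripts, Hmga2 a chromatin protein and Sox11 a transcription factor. Only Sox11 was called whichever library was dropped; the others were called in 2 to 4 of the 7 such fits. The median of these 10 was -0.72, and -0.19 with the suffix covariate, which called Sox11 and Igf2bp1. The 14 cell cycle genes had a median of -1.05 (13 negative, 1 called lower), and of 0.03 with the suffix covariate (7 negative, 0 called). Of all genes 18.5% were called in Sp3-/- against Sp3+/+ cells and 9.77% were called lower, and the suffix covariate called 9.41%.

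For each member the 2 genes with the most similar profile over the 11 libraries were found by Pearson's r of log2 CPM, which is given as a description. Grb10 was most like Anln (0.991) and Sdpr (0.99), H19 like S1pr3 (0.984) and Heph (0.976), Nnat like Gpr63 (0.985) and Decr1 (0.978), and Mest like Wwc1 (0.98) and Ehbp1 (0.971). Meg3 was most like its neighbour Mirg (0.972) and Cbx5 (0.967), the only case in which a gene of the same imprinted domain came first. Dlk1 was most like Neo1 (0.972) and Mapk4 (0.967), Peg3 like Zfp609 (0.974) and Jarid2 (0.97), Plagl1 like L3hypdh (0.968) and Tra2a (0.965), Ndn like Klhl26 (0.962) and A530046M15Rik (0.961), and Peg10 like Ap2a2 and Cgn (both 0.945). No member was among the 2 closest genes of another.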

How the data were processed

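Per the labels and the study's methods, TRIzol RNA with RIN over 7 (10 ng) was made into TruSeq libraries and sequenced as 50 bp single end reads. The authors ran FastQC 0.10.1, aligned reads with STAR 2.4.5a to mm10 and counted them with htseq-count. The deposited files hold raw counts per gene symbol. Annotation version and strand setting were not given in the sources used here. Tallies outside genes (38.4% to 40.9% of each total) were left out. No pair of libraries of a genotype was alike within counting noise.

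The test, on genes above 1 CPM in any library compared, was that of edgeR 4.0.16 (R 4.3.3, TMM, robust quasi-likelihood) with Benjamini-Hochberg adjustment, on 7 libraries for Sp3-/- against Sp3+/+ and on all 11 otherwise. SE is the log2 fold change divided by the square root of F, and intervals are 1.96 SE to either side. With this few libraries they are narrower than 95% intervals. In Sp3-/- against Sp3+/+ cells that of Rian left out 0 (-0.97 to -0.01) at an unadjusted p of 0.084 (edgeR). Values by library are CPM with TMM factors, and log2 CPM has a prior count of 2. The pipeline was tested on simulated data. Alternatives were DESeq2 1.42.0, limma-voom 3.58.1 with and without a consensus correlation, other scalings and filters, each library left out, a covariate for the title suffix and a block for the first title number.

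The members and lists were chosen with earlier results of these data known. Named genes are all members, tested genes of their imprinted domains, called genes of the imprinted, imprint maintenance and fetal growth lists, the 2 genes most like each member, and Sp3. The reading of 697-4 as suffix 2 was added after the data were seen. Positions and promoters are RefSeq's on GRCm38.p6.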

Additional observations from a re-analysis of the deposited data

How the results depend on the processing

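The number of libraries limits every comparison, and H19 (42 reads), Dlk1 (45), Nnat (39) and Mest (23) rest on few reads in Sp3-/- 697-5. In Sp3-/- against Sp3+/+ cells the 2 called members became 5 with DESeq2, 4 with limma-voom and a consensus correlation or with all 11 libraries in 1 fit, 1 when every gene with a count was tested or with the suffix covariate, and 0 with 697-4 as suffix 2, an alternative chosen after seeing the data. Leaving out 1 library gave 0 to 4. The 3 called members against Sp3+/- cells became 5, 1 and 0 with DESeq2, the suffix covariate and 697-4 as suffix 2, and 0 to 3 with a library left out. The 6 other imprinted genes called became 2 with the suffix covariate and 0 with 697-4 as suffix 2, and 1 to 9 with a library left out. No member was called in Sp3+/- against Sp3+/+ cells under any setting run. The cause of these changes was not tested. Over all genes, calls in Sp3-/- against Sp3+/+ cells went from 2599 (1229 higher, 1370 lower) to 4297 with DESeq2, 1329 with the suffix covariate and 163 with 697-4 as suffix 2, and calls against Sp3+/- cells from 3607 (1838 higher, 1769 lower) to 763 and 0 (1168 genes at an unadjusted p under 0.05 by edgeR) with the last 2. All 11 libraries in 1 fit without a covariate gave 3977 calls in Sp3-/- against Sp3+/+ cells. Upper quartile scaling moved the splits to 983 higher and 1671 lower, and to 1436 and 2171. With a library left out, calls against Sp3+/+ ran from 282 (without Sp3-/- 697-2) to 4179 (without Sp3+/+ 468-4). Against Sp3+/- they ran from 1490 (without Sp3-/- 697-2) to 3706 (without Sp3+/- 697-4). Calls of members gained or lost in such fits thus moved with the calls over all genes also changing.

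With the first title number as a replicate block 4 members were called against Sp3+/+ (Dlk1, Grb10, Ndn and Nnat) and 4031 of all genes. Libraries of different genotypes with the same number did not deviate together in all 14 pairs (correlations -0.617 to 0.344, 7 over 0.1). Those of number 685 ran from 0.105 to 0.293. The highest correlation of any pair, 0.708, was between 468-4 and 697-4, which differ in number. These correlations thus cannot show whether a shared number stands for a shared litter. The number was not used as a pairing in the tests above. The block turned Mest to -0.34. Against Sp3+/- cells the block kept the call of Ndn, ended those of Grb10 and Nnat (adjusted p = 0.0549 and 0.0601, edgeR) and gained Dlk1 (0.0220). In Sp3+/- against Sp3+/+ cells it turned Meg3 and Peg3 to -0.01 and Plagl1 to -0.02, and the suffix covariate turned Ndn to -0.05.

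For the genes named in the comparison of Sp3-/- with Sp3+/+ cells, and for the members against Sp3+/- cells, these directions turned, none past the threshold. Against Sp3+/+, the suffix covariate gave Meg3 0.12, Peg3 0.22, Plagl1 0.08, Igf2 1.64, Rtl1 0.59, Usp29 0.21 and Zim1 0.34, and 697-4 as suffix 2 gave Meg3 0.13, Peg3 0.38, Igf2 1.67, Rtl1 0.90, Usp29 0.34 and Zim1 0.59. Rtl1 was 0.11 with limma-voom and 0.07 with the consensus correlation. With a library left out, Peg3 ranged from -0.46 to 0.03, Plagl1 from -1.01 to 0.03, Mest from -1.15 to 1.01, Rtl1 from -0.29 to 0.11, Usp29 from -0.19 to 0.08 and Zim1 from -0.37 to 0.16. Against Sp3+/- cells, the suffix covariate gave H19 0.28 and Peg3 0.17, 697-4 as suffix 2 gave 0.30 and 0.46, and with a library left out Peg3 ranged from -0.47 to 0.01, Peg10 from -0.02 to 1.22 and Mest from -0.90 to 1.26.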
